A study of Mus musculus with 16 samples.

Results

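The 10 genes of the m6A machinery are described here, of 23724 genes with at least 1 gene read in the series. They were chosen by name from the writers (Mettl3, Mettl14, Wtap and Rbm15), the erasers (Alkbh5 and Fto) and the readers (Ythdf1, Ythdf2, Ythdf3 and Ythdc1), and all 10 were detected. Their RNA was read as full-length cDNA by PacBio Iso-seq in the cortex and the striatum of male mice aged 3 months, either R6/2 or non-transgenic (NT), with 4 samples per region and genotype and 16 samples in all. R6/2 mice (B6CBA-Tg(HDexon1)62Gpb/3J) carry exon 1 of the human HTT gene with an expanded CAG repeat and are a fast-progressing model of Huntington's disease. The transgene is a fragment driven by the human HTT promoter, and the mouse's own Htt gene is intact in both genotypes. The NT mice lack the transgene. The samples of a group were numbered 1 to 4 in the labels, which do not say that each is a separate mouse, so the p values measure the spread between these samples.

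N6-methyladenosine (m6A) is a methyl mark placed on adenosines inside messenger RNA. Mettl3 is the catalytic subunit of the writer complex, Mettl14 is its RNA-binding partner, and Wtap and Rbm15 are adaptor subunits that place the complex on its targets. Alkbh5 and Fto are demethylases that remove the mark. The YTH proteins bind it: Ythdf1, Ythdf2 and Ythdf3 act in the cytoplasm, where Ythdf2 is best known for directing RNA to decay, and Ythdc1 acts in the nucleus, where it is known for a role in splicing.

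A read was assigned by TALON to 1 isoform. Known isoforms match an annotated transcript over all of its splice junctions, an incomplete splice match (ISM) covers only part of an annotated chain, NIC isoforms join annotated splice sites in another way, and NNC isoforms use at least 1 unannotated splice site. An ISM is a prefix when it holds the start of the annotated chain and a suffix when it holds the end. Reads of these 4 classes are called gene reads, and levels are given as reads per 1000000 gene reads of the sample (rpm). Known, NIC and NNC reads are called complete.

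The files held between 252885 and 808814 reads per cortical sample and between 317050 and 1496196 per striatal sample. Of 9711041 gene reads in all samples, 3794 belonged to the 10 genes, or 391 rpm. The depth per gene was therefore low. Ythdf2 had 1069 gene reads over the 16 samples (28.2% of the reads of the 10 genes), Wtap 725, Ythdc1 616, Fto 465, Alkbh5 254, Mettl3 244, Ythdf3 184, Ythdf1 111, Mettl14 89 and Rbm15 37. A count of 0 allows up to 3 reads, which is 4.28 to 14.8 rpm in a cortical sample and 2.22 to 11.9 rpm in a striatal sample, for counting error only. In the striatum, NT samples 1 and 2 and R6/2 samples 2 and 3 had 2 count files each, which were summed, and the other 12 samples had 1. The striatal samples with 2 files stood apart: 86.2% to 88.0% of their gene reads were complete, against 79.9% to 84.4% in the striatal samples with 1 file, and the mean length of their isoforms was 2141 to 2225 bases, against 1618 to 1885. The number of count files was therefore a term in each striatal fit and in the fit of all 16 samples. The striatal markers set the regions apart: the summed level of 9 genes of striatal projection neurons was 8308 to 13192 rpm in the striatum of NT mice and 379 to 474 rpm in their cortex, with all 9 detected. In R6/2 mice it was 1871 to 3357 rpm in the striatum and 101.5 to 134.1 rpm in the cortex. The 6 cortical excitatory neuron genes, all detected, overlapped in NT mice, at 192 to 433 rpm in the cortex and 115 to 278 rpm in the striatum. In R6/2 mice they did not, at 200 to 328 and 73.3 to 144 rpm. The 3 choroid plexus genes, all detected, varied widely, from 33.8 to 8785 rpm in striatal NT and 4.37 to 968 rpm in cortical NT samples. In R6/2 mice they were at 83.3 to 298 and 19.1 to 1594 rpm. In bulk tissue, fewer cells of a type and less RNA per cell cannot be told apart.

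The following stretches of RNA mark the isoform differences described later, and they are shown with their positions in mm10 (GENCODE M21 transcripts). Wtap has a long and a short coding form that part at the end of the sixth exon of the long form. Each is shown from 15 bases before to 15 bases after that point, with the differing part in capitals. The window of Wtap-203 spans chr17:12969545-12975310 and crosses an intron, and that of Wtap-205 is chr17:12975281-12975310 (both on the minus strand).
Wtap-203: gtttacgcctgatagCCAAACAGGCAAAAA
Wtap-205: gtttacgcctgatagGTAAACAAATCATAC
In Wtap-205 the sixth exon runs on past the splice site used by Wtap-203, and the open reading frame ends at a TAA codon whose last base lies 4 bases beyond it.

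Ythdf3 has 2 coding forms that differ by a short cassette exon, shown in capitals between the last 15 bases of the exon before it and the first 15 bases of the exon after it (chr3:16189549-16203840, plus strand, introns left out).
Ythdf3-201: agccagacaaatcagaataacagctatcca
Ythdf3-202: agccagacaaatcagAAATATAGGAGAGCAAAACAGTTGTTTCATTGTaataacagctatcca

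The last 30 bases of exon 2 of Ythdc1 (chr5:86815701-86815730, plus strand, from Ythdc1-202) are shown because of 1 isoform that ends with that exon. It was assigned 290 of the 616 reads of the gene, and where the single reads end was not examined. Runs of at least 4 adenines are in capitals.
Ythdc1-202: agagtgaacaagatAAAAAtgagAAAAAAg
Of these 30 bases 19 are A, and the longest run is 6. On the strand of the transcript, among the last 30 bases of exon 2 in 30209 such exons of protein-coding transcripts, 0.887% hold AAAAAA and 0.0993% hold at least 19 A. This is a description of the sequence, and its part in the read ends was not tested.

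**Figure D1:**
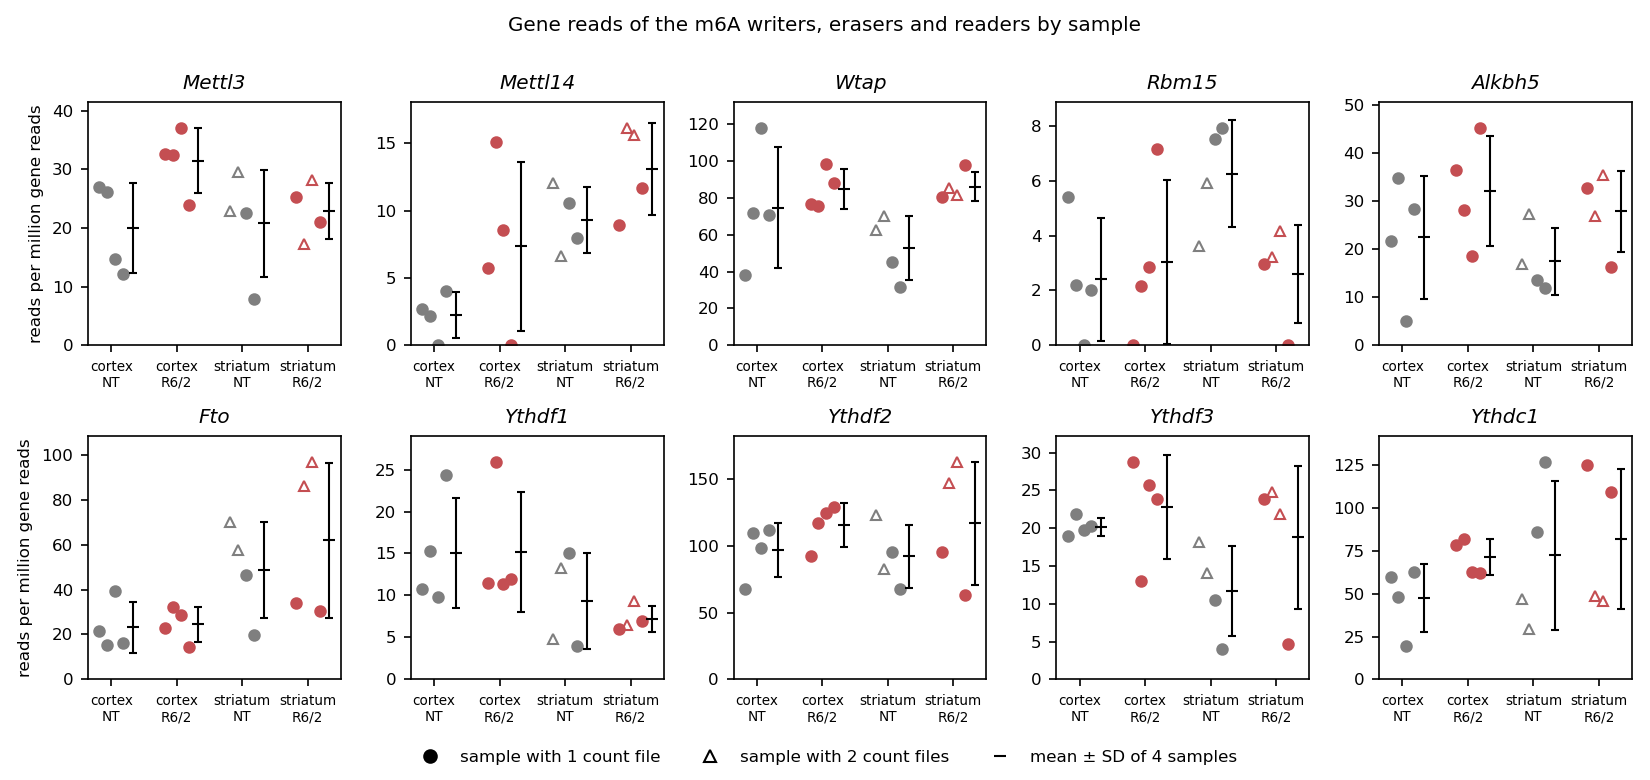
Level of each of the 10 genes (vertical axes, rpm, each with its own scale) in the 16 samples, grouped by region and genotype. Circles are samples with 1 count file, triangles are samples with 2, grey is NT, red is R6/2, and the bars are the mean ± SD of 4 samples. Wtap in the striatum is the one panel in which the genotypes do not overlap within a region, and in the panels of Fto and Ythdc1 the striatal triangles lie apart from the striatal circles.

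R6/2 and NT mice were compared within each region to see whether RNA of the m6A machinery differs in the disease model. No gene of the 10 passed an adjusted p of 0.05 in either region (edgeR quasi-likelihood test, Benjamini-Hochberg adjustment over all genes). Of the 10, 7 passed the filter on low counts and Mettl14, Rbm15 and Ythdf1 did not, so that their values come from a fit with no filter and are given with no adjusted p. Of all genes tested, 3.23% were called in the cortex (198 of 6128) and 4.32% in the striatum (332 of 7694). DESeq2 also called 0 of the 7 in both regions. Without adjustment, p was under 0.05 for 0 of the 7 in the cortex, against 17.2% of all genes, and for 1 of the 7 in the striatum (Wtap), against 17.6%. The median log2 fold change of the 7 was 0.25 in the cortex, where it was 0.02 over all genes tested, and 0.19 in the striatum, where it was -0.00.

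Among the writers, Mettl3 was measured at 27.04, 26.2, 14.8 and 12.2 rpm in the cortex of NT samples 1 to 4 and at 32.6, 32.4, 37.1 and 23.9 rpm in R6/2 samples 1 to 4. The means were 20.04 ± 7.68 and 31.5 ± 5.53 rpm (SD, n = 4), and the lowest R6/2 sample lay below the 2 highest NT samples. The log2 fold change was 0.63 ± 0.33 (SE) with an adjusted p of 0.34 (edgeR), and its 95% interval ran from -0.07 to 1.32. In the striatum, Mettl3 was at 22.9, 29.6, 22.6 and 7.94 rpm in NT and 25.3, 17.2, 28.2 and 20.97 rpm in R6/2 samples. These groups overlapped over most of their range, and the log2 fold change was -0.15 ± 0.30 (adjusted p = 0.88, edgeR), with an interval from -0.78 to 0.49. The difference between the regions was itself tested and did not pass (interaction -0.74 ± 0.44, adjusted p = 0.86).

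Wtap, which brings the Mettl3-Mettl14 pair to nuclear speckles, had the one genotype difference without overlap. In the striatum it was at 62.8, 70.3, 45.2 and 31.8 rpm in NT samples and 80.3, 85.2, 81.4 and 97.9 rpm in R6/2 samples, so that every R6/2 sample lay above every NT sample. The means were 52.5 ± 17.4 and 86.2 ± 8.07 rpm. The log2 fold change was 0.49 ± 0.20, with an unadjusted p of 0.031 and an adjusted p of 0.23 (edgeR), which ranged from 0.15 to 0.48 over the alternative settings. Wtap was 1 of 7 tested genes without overlap, and over all genes tested in the striatum the share was 6.06%. In the cortex 0 of the 7 were without overlap, where the share of all genes was 10.2%. R6/2 exceeded NT by 1.21 (log2 of the ratio of mean rpm) among the samples with 1 file and by 0.32 among those with 2, with 2 samples per genotype in each, and the difference between these values was not tested. Beside it, the summed level of 5 astrocyte genes, all detected, was 1441 to 3402 rpm in striatal NT and 1125 to 1626 rpm in striatal R6/2 samples, and that of the projection neuron genes was given earlier. Their part in the Wtap values was not tested. In the cortex, Wtap was at 37.9, 72.05, 118 and 70.9 rpm in NT and 76.7, 75.6, 98.5 and 88.3 rpm in R6/2 samples. NT sample 3 was the highest of the 8, and the fold change was within its error (0.25 ± 0.25, adjusted p = 0.67, edgeR).

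Mettl14 and Rbm15 were near the limit of counting. Mettl14 had 0 to 7 reads in each cortical sample and 2 to 15 in each striatal sample. In the cortex it was at 0 to 4.05 rpm in NT and 0 to 15.1 rpm in R6/2 samples (log2 fold change 1.48 ± 0.84, unadjusted p = 0.060, edgeR with no filter), and in the striatum at 6.66 to 12.1 and 8.92 to 16.2 rpm (0.44 ± 0.41, unadjusted p = 0.28). Rbm15 had 37 reads in all. It was at 3.62, 5.92, 7.54 and 7.94 rpm in striatal NT samples and 2.97, 3.23, 4.17 and 0 rpm in striatal R6/2 samples, which overlapped between 3.62 and 4.17 rpm (-1.06 ± 0.64, unadjusted p = 0.087, edgeR with no filter). For neither gene did a genotype difference pass without adjustment in these fits, and at this depth their errors were large.

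Of the erasers, Alkbh5 was at 21.6, 34.9, 4.92 and 28.4 rpm in the cortex of NT and 36.4, 28.1, 18.6 and 45.3 rpm in that of R6/2 mice. The value of NT sample 3 rests on 1 read. In the striatum it was at 16.9, 27.4, 13.6 and 11.9 rpm in NT and 32.7, 26.95, 35.5 and 16.3 rpm in R6/2 samples. The genotypes overlapped in both regions, with log2 fold changes of 0.28 ± 0.37 (adjusted p = 0.76) and 0.48 ± 0.30 (adjusted p = 0.45, edgeR). Fto, the other demethylase, was at 21.6, 15.3, 39.4 and 16.2 rpm in cortical NT and 23.0, 32.4, 28.5 and 14.3 rpm in cortical R6/2 samples (0.25 ± 0.36, adjusted p = 0.78, edgeR). Its striatal values were 70.01, 57.8, 46.7 and 19.8 rpm in NT and 34.2, 86.2, 97.0 and 30.3 rpm in R6/2 samples (0.14 ± 0.23, adjusted p = 0.83, edgeR). Within a genotype, the highest 2 striatal values of Fto were those of the samples with 2 count files.

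Among the readers, Ythdf2 had the smallest interval in the cortex. It was at 67.6, 109, 98.5 and 111 rpm in NT and 92.1, 117, 124 and 129 rpm in R6/2 samples there, a log2 fold change of 0.22 ± 0.20 (adjusted p = 0.63, edgeR) with an interval from -0.20 to 0.64. In the striatum it was at 123, 82.2, 94.9 and 67.5 rpm in NT and 95.2, 147, 163 and 62.9 rpm in R6/2 samples (0.19 ± 0.20, adjusted p = 0.72, edgeR). The R6/2 samples included both the highest and the lowest of the 8 striatal values.

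Ythdf3, a close relative of Ythdf2, was at 18.9 to 21.8 rpm in the 4 cortical NT samples and 13.0 to 28.8 rpm in the R6/2 samples (0.17 ± 0.34, adjusted p = 0.85, edgeR). In the striatum it was at 18.1, 14.1, 10.5 and 3.97 rpm in NT and 23.8, 24.8, 21.9 and 4.66 rpm in R6/2 samples, and 3 of the 4 R6/2 samples lay above all NT samples (0.51 ± 0.37, adjusted p = 0.52, edgeR). Ythdf1, known for promoting translation, was at 9.85 to 24.3 and 11.4 to 25.9 rpm in the cortex of NT and R6/2 mice, and at 3.97 to 15.1 and 5.95 to 9.39 rpm in their striatum. Neither comparison passed without adjustment (unadjusted p = 0.84 and 0.17, edgeR with no filter).

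Ythdc1, the nuclear reader, was at 59.5, 48.0, 19.7 and 62.8 rpm in cortical NT and 78.6, 82.1, 62.8 and 62.02 rpm in cortical R6/2 samples (0.46 ± 0.26, adjusted p = 0.37, edgeR). In the striatum it was at 47.1, 29.6, 85.9 and 127 rpm in NT and 125, 48.5, 45.9 and 110 rpm in R6/2 samples, so that each genotype had a low and a high pair (0.11 ± 0.21, adjusted p = 0.88, edgeR). The low pair of each genotype was the pair of samples with 2 count files.

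**Figure D2:**
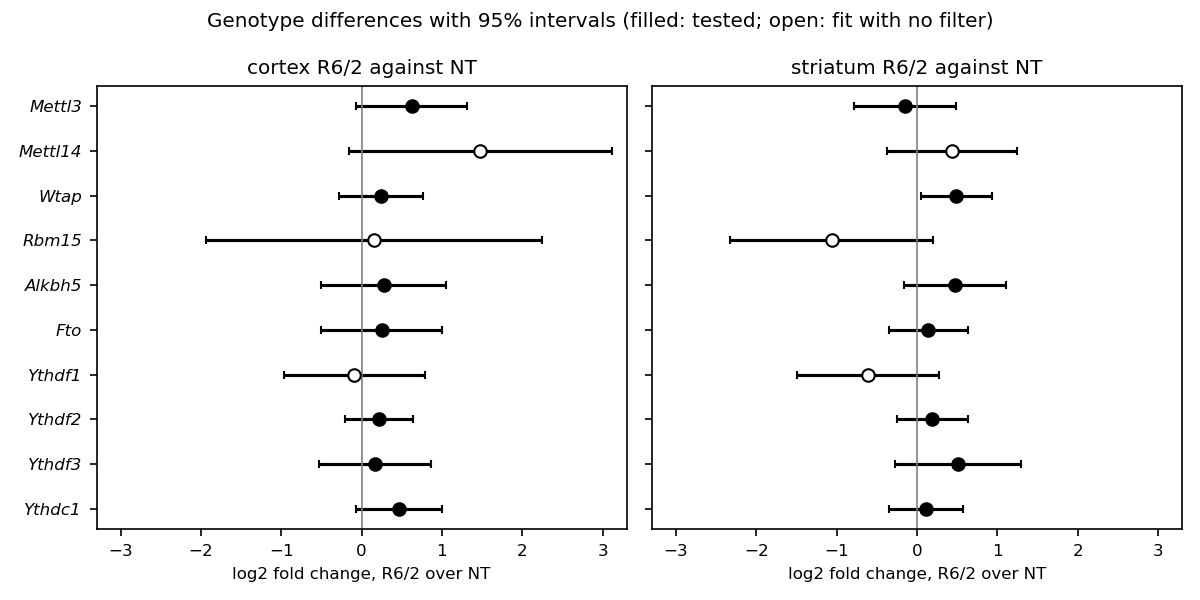
Log2 fold change of R6/2 over NT (horizontal axis) for the 10 genes in the cortex (left) and the striatum (right), with 95% intervals from edgeR. Filled points are the 7 genes tested, and open points are the 3 genes below the filter, from the fit with no filter. The intervals include 0 in all rows but that of Wtap in the striatum, where it runs from 0.05 to 0.93 before any adjustment for the number of genes.

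The regions were compared within each genotype over all 16 samples. All cortical samples had 1 count file, so that with the files term the contrast sets the cortex against the striatal level at 1 file. Each genotype had 2 striatal samples with 1 file, and the files term that adjusts the other 2 is shared by both genotypes. Of 7360 genes tested, 33.6% were called in NT mice and 27.4% in R6/2 mice. Of the 7 genes of the machinery tested, 1 was called in each genotype, and it was Ythdc1 in both. Their median log2 fold change of striatum over cortex was -0.26 in NT and -0.27 in R6/2 mice, where it was -0.12 and -0.10 over all genes tested. The interaction of region and genotype was called for 0.0408% of genes (3 of 7360; 7 with DESeq2, and 427 with an unadjusted p under 0.05) and for none of the 7, and their adjusted p values were all at least 0.86 (edgeR). The comparisons share samples, since each genotype's cortex and striatum also enter the genotype comparisons.

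Ythdc1 was higher in the striatum by a log2 fold change of 1.15 ± 0.28 in NT mice (adjusted p = 0.0027, edgeR) and 0.82 ± 0.25 in R6/2 mice (adjusted p = 0.016). Over the alternative settings the adjusted p ranged from 0.00017 to 0.45 and from 0.0030 to 0.81. Without the files term the fold changes were 0.58 (adjusted p = 0.43) and 0.21 (adjusted p = 0.81, edgeR), and neither was called. The call in R6/2 mice was also lost without striatal R6/2 sample 1 (0.80, adjusted p = 0.067) and without cortical R6/2 sample 3 (0.75, adjusted p = 0.0503, edgeR). The 4 striatal samples with 1 file, at 85.9 to 127 rpm, all lay above the highest cortical sample (82.1 rpm), while the 4 with 2 files, at 29.6 to 48.5 rpm, lay inside the cortical range. The 6 oligodendrocyte genes summed to 3560 to 7457 rpm in the cortex and 10384 to 28537 rpm in the striatum. Within the striatum they were at 10384 to 14860 rpm with 1 file and 18439 to 28537 rpm with 2. The projection neuron genes, given earlier, also differed between the regions. The part of either list in the Ythdc1 values was not tested.

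Fto was the gene whose call went the other way. With the files term it was not called, at 0.74 ± 0.36 in NT (adjusted p = 0.12) and 0.67 ± 0.32 in R6/2 mice (adjusted p = 0.13, edgeR). Without the term it was called in both, at 1.40 ± 0.44 (adjusted p = 0.039) and 1.38 ± 0.40 (adjusted p = 0.029, edgeR). Of all genes, 15% were called without the term in NT mice and 11.4% in R6/2 mice. On complete reads only, with the files term, it was called at 1.15 in NT (adjusted p = 0.0497) and 1.01 in R6/2 mice (adjusted p = 0.042, edgeR). It was also called in NT mice without cortical NT sample 3 (adjusted p = 0.047), and in R6/2 mice without cortical NT sample 1 (adjusted p = 0.042) or 4 (adjusted p = 0.045, edgeR). With the first count file only and no files term it was not called in NT mice and was called in R6/2 mice (1.49, adjusted p = 0.017, edgeR).

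Ythdf3 went in the opposite direction. Its striatal NT samples, at 3.97 to 18.1 rpm, all lay below its cortical NT samples, at 18.9 to 21.8 rpm, and the log2 fold change was -0.94 ± 0.47 (adjusted p = 0.12, edgeR). Without striatal R6/2 sample 1 it was called (-1.42, adjusted p = 0.029, edgeR). Over the alternative settings its adjusted p in NT mice ranged from 0.029 to 0.56 (edgeR and DESeq2). Without the files term the log2 fold change was -0.51 in NT (adjusted p = 0.43) and -0.19 in R6/2 mice (adjusted p = 0.80, edgeR). Ythdf3 was the one tested gene of the 7 without overlap between regions in NT mice, where the share of all genes was 16.8%. In R6/2 mice the log2 fold change of Ythdf3 was -0.57 ± 0.40 (adjusted p = 0.30, edgeR), the 7 genes all overlapped, and the share of all genes was 21.2%. No overlap was also seen in 2 genes below the filter: Mettl14 was at 0 to 4.05 rpm in cortical and 6.66 to 12.1 rpm in striatal NT samples, and Ythdf1 at 11.4 to 25.9 rpm in cortical and 5.95 to 9.39 rpm in striatal R6/2 samples. The log2 fold changes were 1.81 ± 0.79 (unadjusted p = 0.017) and -0.81 ± 0.53 (unadjusted p = 0.12, edgeR with no filter). Wtap, Mettl3, Alkbh5 and Ythdf2 had log2 fold changes between regions from -0.56 to 0.18, with adjusted p values of at least 0.23 (edgeR).

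Because these calls turned on the number of count files, the striatal samples with 2 files were set against those with 1, with genotype in the fit. This comparison was added after seeing the data. It called 30.3% of 7694 genes and 2 of the 7, Ythdc1 and Fto. Ythdc1 was lower with 2 files by a log2 fold change of -1.61 ± 0.21 (adjusted p = 9.5e-05, edgeR), and Fto was higher by 0.93 ± 0.24 (adjusted p = 0.0099, edgeR). Fto was at 57.8 to 97.0 rpm with 2 files, 19.8 to 46.7 rpm with 1 file and 14.3 to 39.4 rpm in the cortex. The summed level of the 6 oligodendrocyte genes, all detected, was also apart, at 18439 to 28537 rpm with 2 files and 10384 to 14860 rpm with 1, and so was that of 4 vascular genes, all detected, at 142.2 to 185.7 and 95.3 to 135.6 rpm. The summed levels of the projection neuron, cortical excitatory neuron, astrocyte, microglia and choroid plexus genes overlapped between file numbers, and the mean isoform length given earlier did not. Their part in the Fto and Ythdc1 values was not tested.

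**Figure D3:**
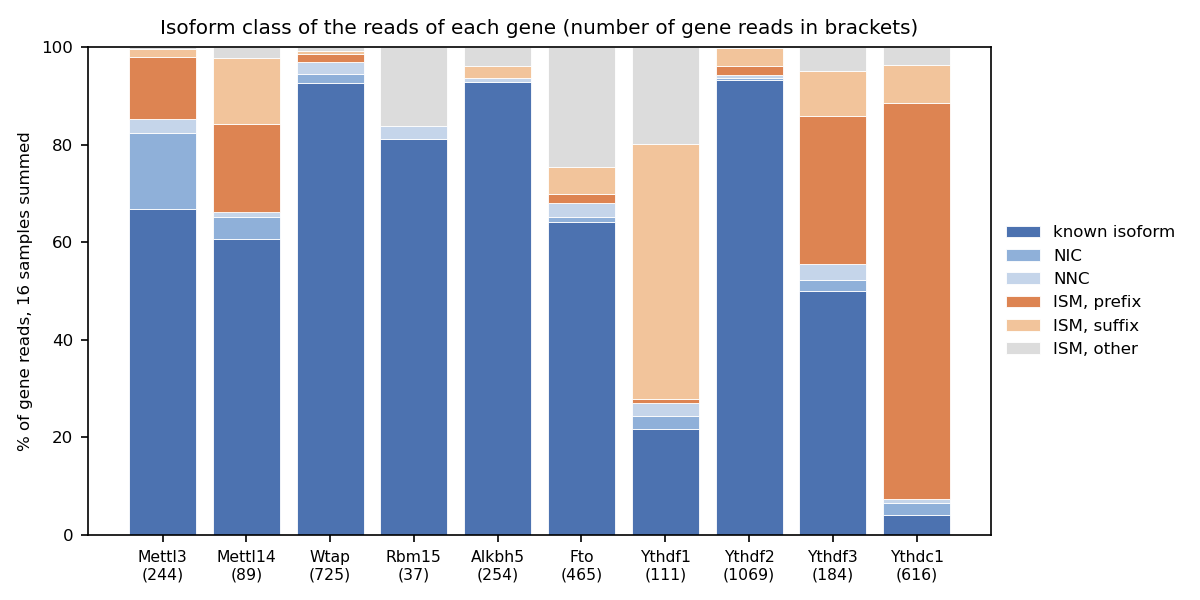
Share of the gene reads of each gene (vertical axis, %, reads of the 16 samples summed, number of reads in brackets) by TALON class. Blue shades are known, NIC and NNC isoforms, orange shades are prefix and suffix ISM, and grey is other ISM. Known isoforms make up between 60.7% and 93.2% of the reads of the writers, the erasers and Ythdf2, suffixes take 52.3% of Ythdf1 and prefixes take 81.2% of Ythdc1.

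The reads of the 10 genes differed in how much of an isoform they covered. Over all samples, 97.0% of Wtap reads were complete, 94.2% of Ythdf2, 93.7% of Alkbh5, 85.2% of Mettl3, 83.8% of Rbm15, 68.0% of Fto, 66.3% of Mettl14, 55.4% of Ythdf3, 27.03% of Ythdf1 and 7.3% of Ythdc1. Ythdf2 and Ythdc1, both readers, thus lay near opposite ends of the range.

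For Ythdc1, 571 of 616 reads were ISM and 500 were prefixes, and only 25 matched a known isoform. Of the 500 prefix reads, 290 (58%) were 1 isoform of 2 exons and 473 bases, which equals the summed length of exons 1 and 2 of Ythdc1-202 and ends with the adenine-rich window printed earlier. At most 3 exons were held by 425 (85%), at most 4 by 477 (95.4%) and at most 5 by 490 (98%), of 16 exons in Ythdc1-202. The 2-exon prefix was at 61.8 ± 13.1 rpm in the striatal samples with 1 file and 17.1 ± 5.17 rpm in those with 2 (n = 4 each), and at 26.8 ± 11.7 rpm in the cortex (n = 8). Prefixes of 3 or more exons were at 33.6 ± 9.95, 14.1 ± 2.81 and 23.3 ± 4.26 rpm in the same samples. All other reads of Ythdc1 were at 16.5 ± 4.48, 11.6 ± 3.49 and 9.36 ± 4.71 rpm. Both kinds of prefix read were thus apart between the striatal samples with 1 and 2 files, and the other reads were not beyond their spread. The region call of Ythdc1 was one on reads mostly assigned to prefixes of the first exons. The prefix share was 88.3% ± 8.23 in NT and 83.3% ± 1.35 in R6/2 cortex (exact permutation test, two-sided, p = 0.31), and 78.6% ± 8.86 and 79.0% ± 8.04 in the striatum (exact permutation test, p = 0.97). This share was added after seeing the data.

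**Figure D4:**
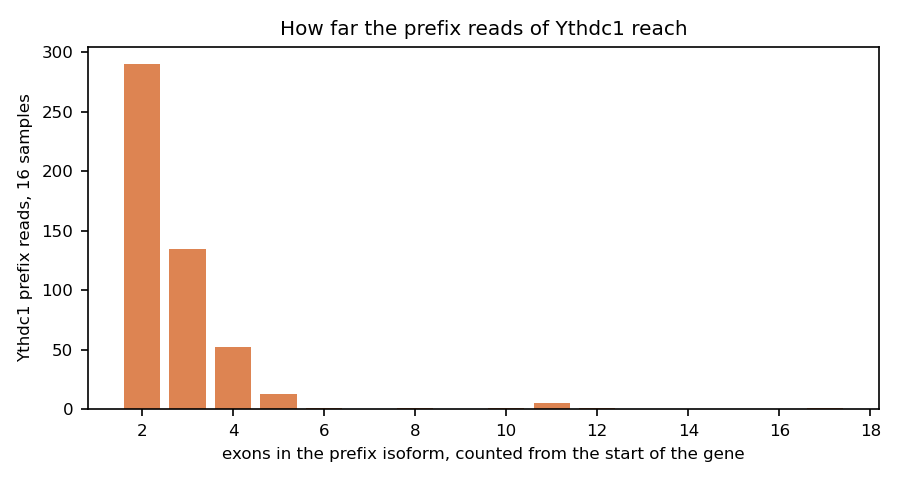
Number of prefix reads of Ythdc1 in the 16 samples (vertical axis) by the number of exons of the prefix isoform, counted from the start of the gene (horizontal axis). Prefixes of 2 exons hold 290 of the 500 reads, and 490 reads have at most 5 exons.

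For Fto, the reads fell into 2 main kinds. Fto-201, the isoform of 9 exons with 502 residues, had 269 reads (85.1% of complete reads), 23 in the cortex and 246 in the striatum. Its last exon alone, read as an ISM of 1 exon and 2158 bases, had 112 reads, 40 in the cortex and 72 in the striatum. Fto-201 was at 2.03 to 11.4 rpm in the cortex, 3.97 to 20.97 rpm in the striatal samples with 1 file and 31.1 to 75.1 rpm in those with 2. The last exon alone was at 12.4 ± 8.71 rpm in the cortex (n = 8) and 10.9 ± 4.71 rpm in the striatum (n = 8). Fto-201 in the striatal samples with 1 file thus overlapped the cortex, and in those with 2 files it did not. The last-exon reads were within their spread. Neither was tested between regions. The complete share of Fto in R6/2 mice was 49.2% ± 11.1 in the cortex and 73.6% ± 10.5 in the striatum without overlap (exact permutation test, two-sided, p = 0.029, adjusted p = 0.11 over the genes testable, added after seeing the data). In NT mice it was 39.3% ± 16.8 and 57.4% ± 17.8, with overlap (exact permutation test, p = 0.20, adjusted p = 0.40). It was 53.8% ± 13.6 in striatal samples with 1 file and 77.2% ± 7.44 in those with 2 (exact permutation test, p = 0.057). Over all gene reads, the complete share was 80.2% to 82.9% in cortical and 81.8% to 88.0% in striatal R6/2 samples. How many of all genes lack overlap in this measure was not computed, so nothing is read from the lack of overlap of Fto.

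**Figure D5:**
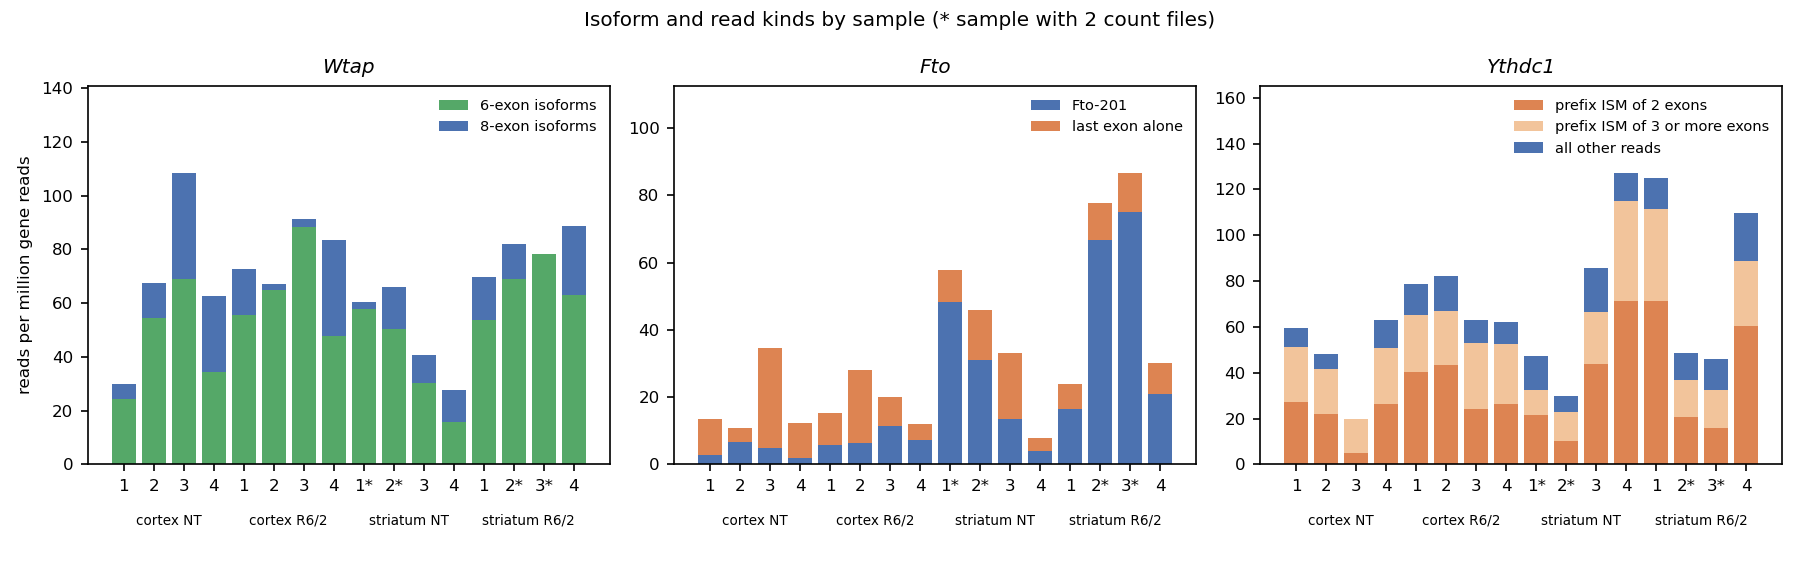
Levels of the main read kinds (vertical axis, rpm) in each of the 16 samples for Wtap (6-exon and 8-exon isoforms), Fto (Fto-201 and its last exon alone) and Ythdc1 (prefixes of 2 exons, longer prefixes and all other reads). Stars mark samples with 2 count files. The blue bars of Fto reach 31.1 rpm or more only in starred samples, and the dark orange bars of Ythdc1 are at least 43.7 rpm in the 4 striatal samples without a star.

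Most complete reads of Wtap came from its short coding form. Wtap-205 (ENSMUST00000160781) had 311 reads (44.2% of complete reads) and Wtap-204 (ENSMUST00000159986) 237 (33.7%). Both have 6 exons, differ in their ends and encode 151 residues, with the stop codon shown in the printed sequence. Together they made up 548 of 703 complete reads (78.0%). The 8-exon isoforms Wtap-203 and Wtap-201, which encode 396 residues, made up 124 (17.6%). The 6-exon share was 81.8%, 78.1%, 60.9% and 50% in cortical NT samples and 74.4%, 88.2%, 95.4% and 54.1% in cortical R6/2 samples (exact permutation test, two-sided, p = 0.40). In the striatum it was 94.1%, 72.3%, 74.1% and 50% in NT and 69.2%, 81.0%, 96.2% and 69.2% in R6/2 samples (exact permutation test, p = 0.63). The shares overlapped in both regions, and this measure was added after seeing the data. In the levels, Wtap-205 was at 13.6 to 31.8 rpm in striatal NT and 35.7 to 48.0 rpm in striatal R6/2 samples, without overlap. The share of all isoforms without overlap was not computed, so nothing is read from this. In the usage test of the striatum, described later, the log2 change of its share was 0.18 (unadjusted p = 0.56, edgeR). The other read kinds overlapped: Wtap-204 was at 0 to 31.4 and 17.8 to 30.2 rpm, both 6-exon isoforms together at 15.9 to 57.9 and 53.5 to 78.2 rpm, and the 8-exon isoforms at 2.41 to 15.5 and 0 to 25.6 rpm. The levels of single isoforms were not tested.

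The other genes mostly had 1 leading isoform, named here as the isoform with the most complete reads or with at least 10% of them. Among the writers, Mettl3-201 (580 residues) had 141 of the complete reads of Mettl3 (67.8%), Mettl14-201 (456 residues) had 51 (86.4%) and Rbm15-201 (962 residues) had 20 (64.5%). Rbm15-202, annotated as a retained intron, had the next 10 reads of Rbm15 (32.3%). Alkbh5-201 (395 residues) had 231 reads (97.1%). Among the readers, Ythdf2-203 (579 residues) had 980 reads (97.3%) and Ythdf1-201 (559 residues) 24 (80.0%). Ythdf3-201 (585 residues), without the cassette exon, had 66 reads (64.7%), and Ythdf3-202 (596 residues), with it, had 23 (22.5%). The exon adds its length in whole codons. Ythdc1 had Ythdc1-203 (728 residues) with 10 reads (22.2%) and Ythdc1-202 (710 residues) with 9 (20%).

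Isoform usage was compared between genotypes with edgeR's test of differential usage, with Simes p values per gene. It called 0.359% of 3060 genes in the cortex (11) and 0.45% of 4443 genes in the striatum (20), and none of the 10. In the cortex only Wtap had enough reads (unadjusted p = 0.37, adjusted p = 0.9999, edgeR). In the striatum the unadjusted p was 0.15 for Fto, 0.60 for Ythdf3, 0.67 for Wtap and 0.78 for Mettl3 (edgeR).

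Shares per sample were compared with the exact permutation test, which with 4 against 4 cannot give a p below 0.029. The share of the leading isoform, of complete reads and of known reads was tested for each gene with reads in all 8 samples of a region, which were 4, 8 and 4 genes in the cortex and 7, 9 and 7 in the striatum. None had an adjusted p under 0.05 (exact permutation test). Adjusted over these numbers of genes, a gene alone at the smallest p stays above 0.05, so the adjusted test could hardly call one. The complete share of Ythdf3 in the striatum was the only one to reach the smallest p. It was 60.0%, 47.4%, 57.1% and 0% in NT samples, of 15, 19, 7 and 1 reads, and 62.5%, 73.9%, 71.4% and 100% in R6/2 samples, of 16, 23, 21 and 2 reads. Every R6/2 value was above every NT value, and the means were 41.1% ± 27.9 and 77.0% ± 16.1 (exact permutation test, two-sided, p = 0.029, adjusted p = 0.26). The 2 outermost values rest on 1 and 2 reads. How many of all genes lack overlap in complete share was not computed, so nothing is read from the lack of overlap of Ythdf3. Between regions, the complete shares of Alkbh5 in NT mice and of Ythdf3 in R6/2 mice also reached the smallest p (exact permutation test, p = 0.029, adjusted p = 0.23 and 0.11), a comparison added after seeing the data.

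The other genes of the pathway were taken from 4 lists: further writer subunits, other RNA methyltransferases and their partners, further m6A readers, and donor genes. The donor genes take part in the supply or turnover of the methyl donor S-adenosylmethionine, or are relatives of such genes. Their list is no measure of the supply. Between genotypes, none of those tested passed an adjusted p of 0.05 in either region (edgeR; 1 of 5 writer subunits, 3 of 5 methyltransferases in the cortex and 4 in the striatum, 10 of 14 readers and 5 of 6 donor genes were tested). Their median log2 fold changes, in that order of lists, were 0.11, 0.51, 0.10 and -0.40 in the cortex and 0.30, 0.29, -0.04 and -0.14 in the striatum. Between regions in NT mice, where 33.6% of all genes were called, 2 of 3 methyltransferases were higher in the striatum, 1 of 11 readers was higher and 1 lower, 3 of 5 donor genes were lower and the 1 writer subunit tested was not called. In R6/2 mice, where 27.4% of all genes were called, 2 of 3 methyltransferases were higher, 1 of 11 readers lower and 1 of 5 donor genes lower, and the writer subunit was again not called.

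Trmt112, an activator of several methyltransferases, was higher in the striatum by 1.89 ± 0.31 in NT mice (adjusted p = 6.5e-05, edgeR) and 0.93 ± 0.26 in R6/2 mice (adjusted p = 0.0091). Pcif1, which methylates the cap-adjacent adenosine, was higher by 0.74 ± 0.28 in NT (adjusted p = 0.041) and 0.97 ± 0.25 in R6/2 mice (adjusted p = 0.0060, edgeR). Fmr1, an RNA-binding protein also described as an m6A reader, was lower by -1.46 ± 0.43 in NT (adjusted p = 0.011) and -1.68 ± 0.42 in R6/2 mice (adjusted p = 0.0039, edgeR). Of the donor genes, Mat2b, a regulatory subunit of S-adenosylmethionine synthesis, was lower by -0.66 ± 0.20 in NT mice (adjusted p = 0.013, edgeR), and Ahcyl1, a relative of the hydrolase of the spent donor, by -0.75 ± 0.28 in NT (adjusted p = 0.039) and -0.73 ± 0.27 in R6/2 mice (adjusted p = 0.045, edgeR). Without the files term, 4 of these calls in NT mice were lost: Pcif1 (0.74, adjusted p = 0.057), Fmr1 (-1.04, adjusted p = 0.068), Mat2b (-0.52, adjusted p = 0.10) and Ahcyl1 (-0.35, adjusted p = 0.43, edgeR). In R6/2 mice those of Trmt112 (0.36, adjusted p = 0.60) and Ahcyl1 (-0.36, adjusted p = 0.46, edgeR) were lost. Zc3h13, the writer subunit tested, was called without the term in NT mice, as lower in the striatum (-0.65, adjusted p = 0.045, edgeR).

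As a description, the genes whose log2 CPM was most like that of Ythdf2 over the 16 samples were Pafah1b2 (Pearson r = 0.89), Kansl2 (0.87) and Eif4g2 (0.87), of 7359 genes compared. For Mettl3 they were Chchd4 (r = 0.77), Zbtb11os1 (0.77) and Tmem246 (0.75). The 16 samples share regions, genotypes and numbers of files, which any such likeness also holds.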

How the data were processed

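RNA of cortex and striatum was made into Iso-seq libraries after exonuclease treatment and 27 PCR cycles. The authors selected full-length polyadenylated reads, aligned these to mm10 (minimap2 2.17-r941) and assigned them to isoforms with TranscriptClean and TALON, and deposited unnormalized counts of reads per isoform, before TALON's filter. Here, count files of a sample were summed, and gene counts are sums of known, ISM, NIC and NNC reads. Genomic, antisense and intergenic reads were left out. PCR copies were not identified, so floors and shares cover counting error only.

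Genes were tested with edgeR 4.0.16 (R 4.3.3; TMM, filterByExpr, glmQLFit and glmQLFTest), and isoform usage with its diffSpliceDGE over isoforms with at least 10 complete reads. The Benjamini-Hochberg adjustment ran over all genes tested, with a threshold of 0.05. Log2 CPM used a prior count of 2. Striatal and joint fits had a term for the number of count files. Shares per sample were tested by exact permutation (two-sided, 70 arrangements, scipy 1.17.1) and adjusted over the genes of a region and measure. Groups and sex came from the sample labels, and age and strain from the study's text. Isoform names, exons, sequences and positions come from GENCODE M21 (mm10), matched by transcript ID.

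The members, gene lists and tests were chosen with earlier results of these data known. The 10 genes are named in every comparison. Isoforms are named with the most, or at least 10%, of a gene's complete reads, or with an unadjusted p under 0.05 for usage. Other pathway genes are named when called between genotypes, and up to 4 per region comparison by smallest adjusted p. For Ythdf2 and Mettl3, the 3 genes of highest correlation are named. The Wtap 6-exon share, the Ythdc1 prefix share, shares between regions or file numbers and the test of file numbers were added after seeing the data. Alternatives were DESeq2 1.42.0, upper-quartile scaling, other filters, genomic reads added, complete reads only, the first count file only, no files term, values within file numbers, all samples in 1 fit, a replicate block and leaving out each sample. Scripts that test many genes were tested on simulated data, in which the changed genes averaged at least 10 reads per sample. Of genes changed by a log2 fold of 1 in either direction, 68.8% were called in the cortex and 47.8% in the striatum. For a log2 fold of 2 these were 100% and 97.8%. Of the genes called, 4.94% and 8.22% had not been changed. The protein sequences were not used here.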

Additional observations from a re-analysis of the deposited data

Results flagged for a closer look

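Of 75 groups of 4 samples checked with Dixon's test, 6 held a sample far from the other 3. Chance gives about 1 in 20 where values are normally distributed, which bounded or tied shares need not be. The first of the 6 flags were levels. Ythdf1 in cortical R6/2 sample 2 was at 25.9 rpm, where the other 3 were at 11.4 to 11.9 rpm. Ythdf3 in striatal R6/2 sample 4 was at 4.66 rpm, where the others were at 21.9 to 24.8 rpm. The other flags were shares. Alkbh5-201 made up 90.9% of complete Alkbh5 reads in striatal R6/2 sample 3 and 100% in the others. As these others were tied, any lower share would have been flagged. The complete share of Mettl3 in cortical R6/2 sample 2 was 73.3%, against 88.2% to 90.0%. That of Wtap in cortical NT sample 1 was 78.6%, against 95.8% to 97.1%, and that of Ythdf2 in striatal NT sample 4 was 64.7%, against 92.1% to 93.1%. Striatal NT sample 4 and R6/2 sample 4 are the striatal samples with the fewest gene reads of their groups.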

How the results depend on the processing

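The direction and the side of the threshold held in 683 of 739 fold changes of the 7 tested genes under an alternative. Of the others, 41 changed sign, 9 became called and 6 lost a call. Mettl14, Rbm15 and Ythdf1 are not among these fold changes, and the ratios within file numbers are counted by their sign only. In both genotype comparisons 0 of the genes were called under any alternative run. The causes of the changes were not tested. Counts of all genes called moved in the cortex between genotypes to 95 on complete reads only. In the striatum they moved to 637 with no filter, 39 with no files term, 20 with the first file only and 182 with the replicate block. Interaction calls moved to 7 with DESeq2, 9 with no filter, 1 on complete reads, 1 with no files term, 0 with the first file only and 1 with the block. Region calls moved in NT mice to 1103 with no files term and 937 with the first file only, and in R6/2 mice to 840 and 718. With the first file only, 0 of the 10 genes were called between regions in NT mice and 1 in R6/2 mice, Fto in place of Ythdc1. Isoform usage calls in the cortex moved to 28 with the F test and 7 on known isoforms only, and in the striatum to 74, 7, 11 with ISM added, 3 with no files term and 0 with the first file only.

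These signs changed. Mettl3 in the striatum between genotypes was 0.035 with genomic reads and 0.60 within samples of 1 file, where Fto was -0.046 and Ythdf2 -0.039. The Ythdf2 interaction was 0.015 with upper-quartile normalization, 0.0096 on complete reads and 0.041 with genomic reads. The Fto interaction was 0.066 with genomic reads, 0.21 with the first file only and 0.027 with the replicate block, and the Alkbh5 interaction was -0.084 with the first file only. Between regions in R6/2 mice, Wtap was 0.038 with DESeq2, 0.059 with no filter, 0.046 with no files term and 0.33 with the first file only, and Ythdf2 was 0.067 and 0.20 in the last 2. In NT mice Ythdf2 was 0.074 with no files term and 0.24 with the first file only. The Ythdc1 prefix share in the striatum was -2.55 points with the first file only.

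Leaving out 1 sample each gave 95 to 300 calls in the cortex, lowest without R6/2 sample 3 and highest without NT sample 1, and 145 to 392 in the striatum, lowest without R6/2 sample 2. Region calls were 1937 to 2512 in NT and 1504 to 2255 in R6/2 mice, interaction calls 1 to 3, and usage calls 1 to 15 in the cortex and 5 to 26 in the striatum. The genes of the machinery called between regions were 1 to 2 in NT and 0 to 2 in R6/2 mice. Signs changed in these ranges: the interactions of Alkbh5 (-0.044 to 0.53), Fto (-0.32 to 0.16) and Ythdf2 (-0.22 to 0.13), Mettl3 (-0.26 to 0.084) and Ythdc1 (-0.015 to 0.27) between genotypes in the striatum, Wtap between regions in R6/2 mice (-0.28 to 0.14) and Ythdf2 in NT mice (-0.45 to 0.023). Among shares they were the Wtap 6-exon share (-1.27 to 13.4 points), the Ythdc1 complete share (-1.14 to 5.28) and prefix share (-3.02 to 4.40) in the striatum, and the Ythdf3 complete share in the cortex (-24.2 to 5.75).

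Deviations from the group means were correlated between samples of the same number, with r of 0.17, -0.05, -0.07 and 0.13 for numbers 1 to 4 between genotypes in the cortex and 0.15, -0.38, 0.05 and -0.20 in the striatum. Between regions r was -0.03, 0.10, 0.08 and -0.11 in NT and -0.03, 0.22, 0.32 and 0.06 in R6/2 mice. Not every pair was over 0.1 in any comparison, so that the numbers were not read as pairs. Between regions, though, several same-number pairs had an r above the largest r with another number. In R6/2 mice these were numbers 2, 3 and 4 (largest other r 0.037, 0.056 and 0.016). In NT mice they were 2 and 3 (0.087 and 0.0057). Between genotypes they were numbers 1 and 4 in the cortex (0.028 and 0.034), with no such pair in the striatum. Whether samples of the same number come from the same mouse was not tested. A replicate block left 205 calls in the cortex and 0 of the 10 genes called between genotypes. With the block, 1 of the 10 genes was called between regions in each genotype. In that fit a number had the same block term in both genotypes. The fit therefore does not pair cortex and striatum within a mouse, and it cannot decide whether the region call would hold with such pairing. Depth limits Mettl14, Rbm15 and Ythdf1, whose 16 samples hold 89, 37 and 111 reads.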

Other observations

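When ISM reads were added to the test of isoform usage in the striatum, 2 isoforms of the machinery had an unadjusted p under 0.05 and neither was called. A suffix of 2 exons of Ythdf2 (35 reads) took a lower share in R6/2 mice (log2 fold change -1.08, unadjusted p = 0.028, adjusted p = 0.86, edgeR). A prefix of 10 exons of Mettl3 (22 reads) took a higher share (1.26, unadjusted p = 0.046, adjusted p = 0.94, edgeR).

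For Ythdf1, 56 of 111 gene reads were a suffix of 2 exons and 22 were a single exon that equals its first exon, against 24 reads of Ythdf1-201. Of the further m6A readers, Igf2bp1 had no gene read in any sample.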
